A study of Drosophila melanogaster with 12 samples.

Results

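Eye-antennal discs are the larval epithelia that form the adult eye, antenna and head capsule. The comparison described here set discs that overexpressed Prp8F>L ("lilac") against discs that overexpressed Prp8wt, with 3 libraries in each group. Prp8 is a core protein of the U5 snRNP and of the catalytic centre of the spliceosome, and dominant mutations of its human counterpart PRPF8 cause retinitis pigmentosa, a degeneration of photoreceptors. In Prp8F>L larvae *ey-Gal4* drove a UAS transgene for Prp8 with the change F2374L (label Prp8-F2374L; the position is counted in the fly protein). The other mutant groups of the series carried H2369R (Prp8H>R, "russet") or S2178F (Prp8S>F, "fuchsia"). The reference larvae carried the same driver with an unchanged Prp8 transgene (Prp8-WT), so every group overexpressed a Prp8 protein. All transgenes sat at the same landing site in a wild-type *prp8* background. All larvae were kept at 25 °C and dissected in the last larval instar, 7 days after egg laying. *ey-Gal4* acts early in the cycling cells of the eye-antennal primordium, so a library pools cells that express the driver and cells that do not. The study's reason for the comparison was that adult eyes looked undisturbed with Prp8F>L and misshapen with Prp8H>R and Prp8S>F.

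The members were all genes of the deposited table for Prp8F>L against Prp8wt, each gene identifier counted once. The table held 1635 entries for 1634 genes, because *br* had 2 entries. The table for Prp8H>R held 1207 genes, that for Prp8S>F 2437, and 3525 genes were in at least 1 of the 3. Each entry gives the gene's symbol, a signed fold change of the mutant over Prp8wt (a fall is written as a negative value), a p, and Gene Ontology (GO) terms for process, function and component. Only genes with a p under 0.05 are in the tables, and such a gene is called listed here. An unlisted gene had a larger p or was not tested, and it is not known to be unchanged. Of 18358 annotated genes, 1610 (8.77%) were listed for Prp8F>L. Values of single libraries are not in the tables, so a gene's spread between replicates cannot be given and the labelled tissue could not be checked against its markers. In bulk discs, fewer cells of a type and less RNA per cell cannot be told apart. Library depth ranged over 49.8 to 57.9 M reads in Prp8F>L and 48.2 to 54.5 M reads in Prp8wt (M, mega; exact permutation test, two-sided, p = 0.8). Of 16 measures in the libraries' quality reports, the smallest p by this exact test was 0.2, where the smallest value that 3 libraries per group allow is 0.1.

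Prp8F>L discs differed from Prp8wt discs by small amounts in many genes. Of the listed genes, 685 (41.9%) were higher and 949 (58.1%) lower in Prp8F>L. The median size of the fold change was 1.13 among the higher and 1.14 among the lower genes, and 81.0% of all listed genes had a size under 1.2. A size of at least 1.2 was reached by 96 higher and 214 lower genes, and a size of at least 1.3 by 30 higher and 61 lower genes. Whether the listed p had been adjusted is not given in the sources used here. When it was adjusted over the annotated genes by the Benjamini-Hochberg method, 446 genes (27.3%) kept an adjusted p under 0.05, 149 of them higher and 297 (66.6%) lower. A p listed as 0 stood beside 152 genes. Of these, 75 (50 higher, 25 lower) had a fold change of a size under 1.1. Whether such a p was rounded at 6 decimals or stands for a missing value is not given. For the adjustment a p of 0 was set to 1e-06, so all 152 genes are among the 446.

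**Figure D1:**
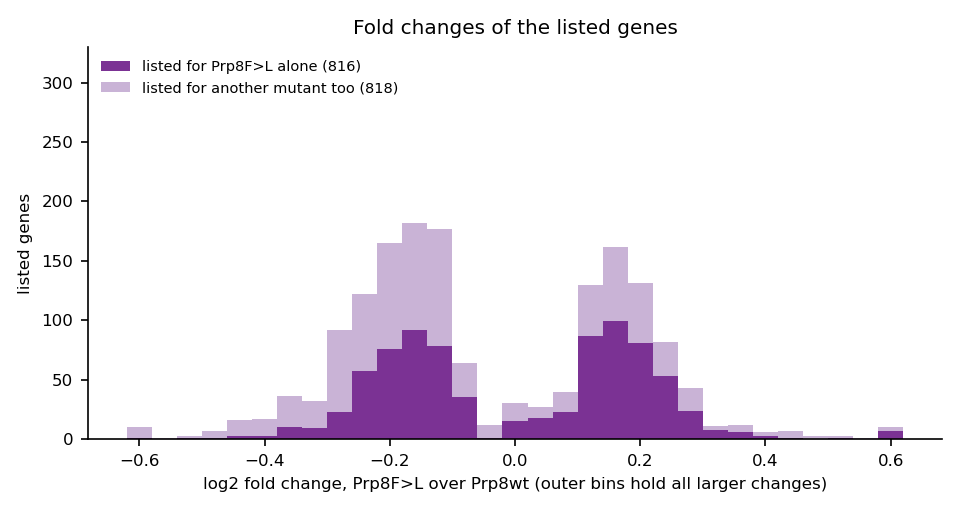
Histogram of the log2 fold change of Prp8F>L over Prp8wt (horizontal axis) for the 1634 listed genes, stacked as genes listed for Prp8F>L alone (816, dark) and genes also listed for another mutant (818, light). Most genes lie in a hump on either side of 0, within a fold of 1.2, and the outermost bins gather the 10 genes higher and the 10 genes lower by at least 1.5-fold.

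At the study's thresholds, a p under 0.05 and a fold change of at least 1.5, Prp8F>L discs had 10 genes higher and 10 genes lower than Prp8wt discs, 1.22% of the listed genes. The higher genes encode receptors and regulators of G-protein signalling, kinesins, a ciliary transport protein and a heat-shock protein. The lower genes encode cytochromes P450, ion channels, an activin-like ligand and a neural transcription factor. All 20 have a p listed as 0. Just outside the fold threshold were *Hsp67Bc* at 1.48 and *Rbp6* at -1.48, and the smallest values inside it were 1.5 and -1.52. All 3 comparisons share the Prp8wt libraries, and the other mutants' own values are given beside those of Prp8F>L without a test between mutants.

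The largest rise was in *mthl8*, a member of the Methuselah-like family of G-protein coupled receptors, at 7.98-fold in Prp8F>L discs and unlisted for the other mutants. The gene lies near the end of chromosome 3L (22428 to 26308, plus strand, BDGP6) with no other annotated gene within 25 kb. A second receptor of this family, *mthl3*, was 1.63-fold higher in Prp8F>L, with 1.19 in Prp8H>R and 1.35 in Prp8S>F. *Dhit*, an RGS protein that ends G-protein signalling, was 1.6-fold higher in Prp8F>L and unlisted otherwise. The GO term for G-protein coupled receptor signalling as a whole did not follow these genes, with 5 listed members higher and 10 lower. *Oseg5*, a component of the intraflagellar transport particle B that builds cilia, was 2.6-fold higher in Prp8F>L and 2.67-fold higher in Prp8S>F, but unlisted for Prp8H>R. *Klp54D* (1.78) and *CG32318* (1.65), both annotated to the kinesin complex, were higher in Prp8F>L and unlisted for the others. *CG5731*, annotated as an alpha-galactosidase, was 1.57-fold higher, and its listed neighbours *CG5727* and *CR44845* were each 1.27-fold higher. *CR44845* overlaps *CG5731* on the other strand. *Hsp26*, a small heat-shock protein, was 1.53-fold higher in Prp8F>L and lower in Prp8S>F (-1.31). *oaf* and *CG31798* were each 1.5-fold higher in Prp8F>L only among the 3 tables.

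The largest fall was in *Cyp4p2*, a cytochrome P450, with fold changes of -5.12 in Prp8F>L, -3.94 in Prp8H>R and 1.52 in Prp8S>F. Its neighbour *Cyp4p1* had -1.54 in Prp8F>L, -1.4 in Prp8H>R and 1.7 in Prp8S>F. The pair lies on chromosome 2R (*Cyp4p2* at 9237512 to 9239831, *Cyp4p1* at 9240041 to 9242139) and overlaps *hig* on the other strand, which was itself lower in Prp8F>L (-1.29). *ppk13*, a sodium channel subunit of the DEG/ENaC family, had -2.25 in Prp8F>L, 1.21 in Prp8H>R and -3.2 in Prp8S>F. *CG33509*, the next gene on the same strand of chromosome 2L, had -1.52 in Prp8F>L, 1.13 in Prp8H>R and -1.87 in Prp8S>F, the same order of signs. *CG42260*, annotated as a channel opened by cyclic nucleotides, was lower in all 3 mutants, at -2.1 in Prp8F>L, -1.65 in Prp8H>R and -2.36 in Prp8S>F. The non-coding RNA *CR40469* had -2 in Prp8F>L, 1.19 in Prp8H>R and -4.47 in Prp8S>F.

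*pros*, the homeodomain factor Prospero of R7 photoreceptors, cone cells and dividing neural precursors, had -1.59 in Prp8F>L and -1.55 in Prp8S>F. *daw*, which encodes the activin-like ligand Dawdle, had -1.55 in Prp8F>L, -1.27 in Prp8H>R and -1.34 in Prp8S>F. *CG31221* had -1.71 in Prp8F>L, -1.13 in Prp8H>R and -1.55 in Prp8S>F, and *CG15236* was listed in Prp8F>L only (-1.52). Of the 20 genes, 16 had another listed gene within 25 kb, as did 1108 of 1590 other listed genes. In the windows of the 20 genes 42 of 241 annotated neighbours (17.4%) were listed, compared with 10.4% for the other listed genes. Windows of pairs such as *Cyp4p2* and *Cyp4p1* overlap, so the same neighbour can be counted more than once. *Prp8* itself was unlisted for Prp8F>L, with 1.14 in Prp8H>R and 1.36 in Prp8S>F, and the values do not separate the transgene's RNA from that of the gene.

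**Figure D2:**
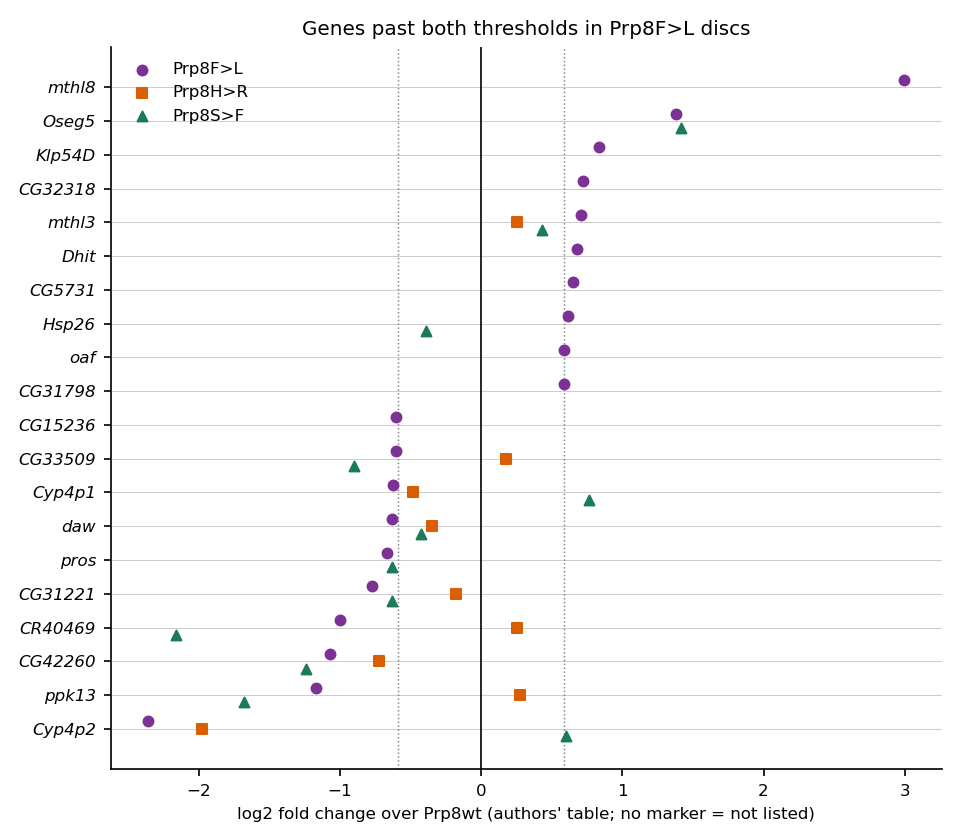
Log2 fold change over Prp8wt (horizontal axis) of the 20 genes past both thresholds in Prp8F>L (circles), with the values of the same genes in Prp8H>R (squares) and Prp8S>F (triangles) where listed; dotted lines mark a fold of 1.5. *mthl8* stands alone at 7.98-fold, and *Cyp4p2* lies at -5.12 and -3.94 in Prp8F>L and Prp8H>R but at 1.52 in Prp8S>F.

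Genes listed for Prp8F>L and in neither other table numbered 816 (49.9%), 426 higher and 390 lower. They made up 62.2% of the higher genes and 41.1% of the lower ones, so the genes that Prp8F>L shared with another table were mostly lower (259 higher, 559 lower). Of the 816 genes, 153 passed the adjusted p, 81 higher and 72 lower. Of the 20 genes past both thresholds, 8 were in neither other table: the 7 higher genes *mthl8*, *Klp54D*, *CG32318*, *Dhit*, *CG5731*, *oaf* and *CG31798*, and the lower gene *CG15236*. Counted by the thresholds instead, 12 of the 20 were not past them in the same direction in another mutant. The next rises among genes listed for Prp8F>L alone were in *CG6511* (1.42), in *DPCoAC*, a mitochondrial carrier of dephospho-coenzyme A (1.35), and in *CG44252* (1.33). The falls below *CG15236* were in *CG9380* (-1.42), the odorant receptor gene *Or65c* (-1.39), the mucin gene *Mur2B* (-1.36) and an isoleucine tRNA gene, *tRNA:Ile-TAT-1-1* (-1.35). *CG30428* (-1.31) lies inside the span of *CG9380*. Further falls were in the dynein intermediate chain gene *Dic61B* (-1.34), in *Neurochondrin* (-1.32), in *scaRNA:MeU2-48* (-1.31), a small RNA that guides modification of U2 snRNA, and in *CG2111* (-1.3), annotated to proteolysis. Absence from another table is not a test of a difference between mutants, and none could be made.

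GO terms differed in the direction of their listed genes. A term was found for 1397 listed genes, and 271 terms held at least 8 listed genes. In 214 of these terms more members were lower than higher, in 47 more were higher, and in 10 the counts were equal. At least 90% of the members were lower in 51 terms and higher in 14, against 58.1% and 41.9% in the whole table. Terms with mostly lower genes include those of axons, eye and epithelial morphogenesis, adhesion, the plasma membrane and transcription factors. Terms with mostly higher genes include those of ribosomes, the catalytic spliceosome, protein folding, the mitochondrial matrix and DNA repair. A gene can carry many terms, so terms are not independent counts. The terms described here, 35 of which are plotted, were chosen with their values known, and process terms were not used for 28 listed genes.

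**Figure D3:**
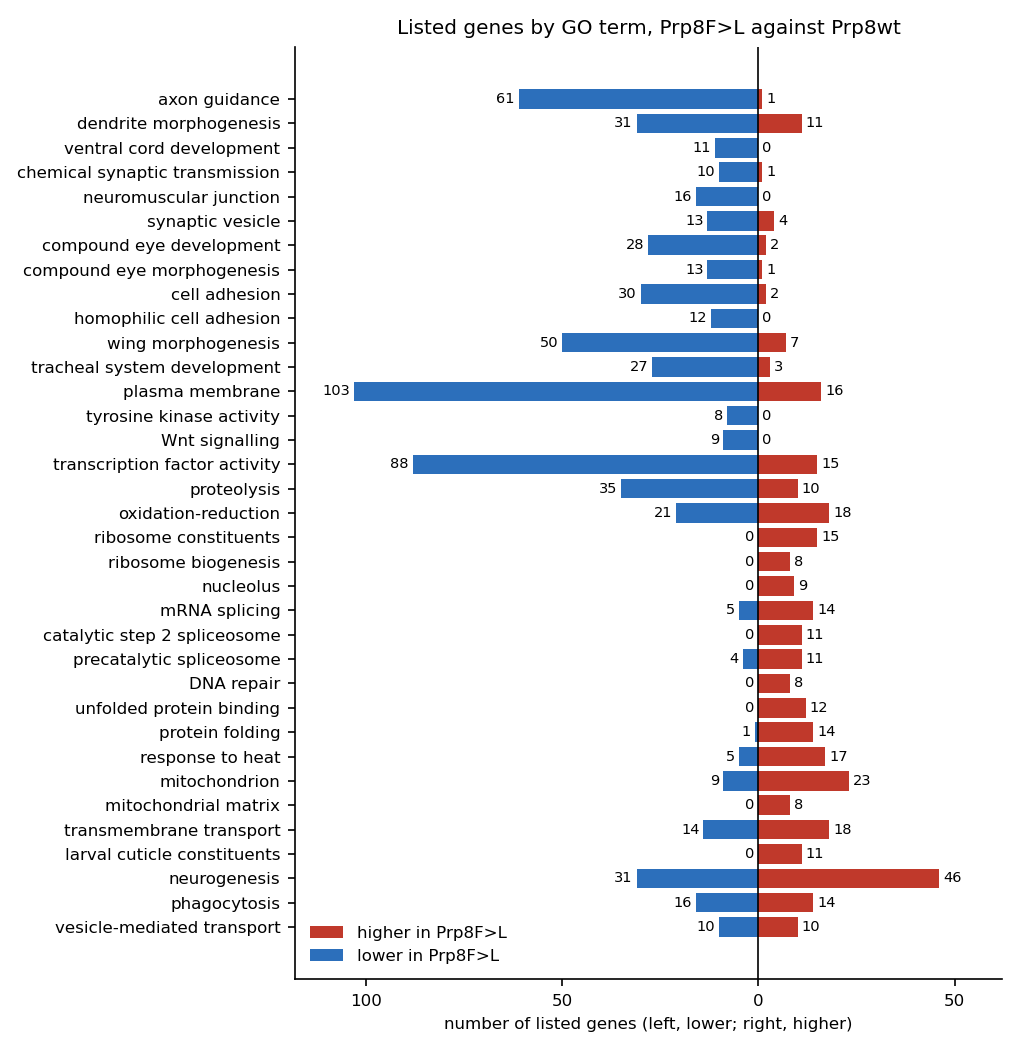
Number of listed genes lower (blue, drawn left) and higher (red, drawn right) in Prp8F>L than in Prp8wt for 35 GO terms. Axon guidance (61 lower, 1 higher), plasma membrane (103 lower, 16 higher) and transcription factor activity (88 lower, 15 higher) lean left, while ribosome constituents (15 higher, 0 lower) and unfolded protein binding (12 higher, 0 lower) lie right of 0.

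Nearly all listed genes of axon guidance were lower in Prp8F>L discs. Of 62 listed members of the term, 61 were lower and 1 higher (median log2 fold change -0.18), against 58.1% lower in the whole table, and 22 of the lower genes passed the adjusted p. The term had 32 lower and 4 higher members in Prp8H>R, and 62 lower and 7 higher in Prp8S>F. The largest fall after *daw* was in *jeb* (-1.42), the secreted ligand of the receptor tyrosine kinase Alk, followed by the Sox factor gene *SoxN* (-1.38). *nerfin-1*, a zinc finger factor of differentiating neurons, and *run*, a Runt family factor, each had -1.33. In the list of guidance receptors and ligands, chosen with earlier results of these data known, 28 of 51 matched genes were listed, all lower. The other 23 were unlisted. Of the 28, 25 were of 20 kb and over, introns included. At that length 95.7% of all listed protein-coding genes were lower in Prp8F>L. The largest falls were in the immunoglobulin superfamily receptors *Dscam3* (-1.41), *Dscam2* (-1.35), *dpr6* (-1.28) and *Dscam1* (-1.26), and in N-cadherin, *CadN* (-1.23). *Dscam3* had -1.3 in Prp8H>R and -1.63 in Prp8S>F.

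Several terms of synapses had mostly lower genes, but the general term did not stand out. Synapse had 6 higher and 9 lower genes (60.0% lower, against 58.1% in the whole table), and under 20 kb 6 higher and 3 lower. Chemical synaptic transmission had 1 higher and 10 lower genes, the neuromuscular junction 0 and 16, and the synaptic vesicle 4 and 13. Under 20 kb these terms had 1 and 2, 0 and 4, and 4 and 7, and all their longer listed members were lower. Ventral cord development had 0 higher and 11 lower genes. The RNA-binding protein gene *cpo* had -1.37, *brp*, a scaffold of the presynaptic active zone, -1.34, and *para*, the voltage-gated sodium channel, -1.33. *Ace*, which encodes acetylcholinesterase, had -1.29 and *Syt1*, the calcium sensor of vesicle release, -1.22. For *Syt1* the other mutants had larger falls, -1.27 in Prp8H>R and -1.51 in Prp8S>F, whereas for *para* they had -1.16 and -1.28. Dendrite morphogenesis was more mixed, with 11 higher and 31 lower genes. *Esyt2*, annotated to the synaptic vesicle, was higher in Prp8F>L at 1.28, with 1.17 in Prp8H>R and 1.74 in Prp8S>F. Among ion channels 1 of 40 list members was higher and 9 were lower, led after *ppk13* by *Ca-alpha1T* (-1.44), a T-type calcium channel.

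Listed genes of eye development were mostly lower in Prp8F>L discs. Of 30 listed genes of compound eye development 28 were lower and 2 higher, and of 14 genes of compound eye morphogenesis 13 were lower and 1 higher. *lz* (-1.24), a Runt factor of cone cells and photoreceptors, *peb* (-1.21), a zinc finger factor, and *skd* (-1.19), a Mediator subunit, led the falls. *ey*, the Pax6 gene whose enhancer gives the driver its name, was higher at 1.16 in Prp8F>L, 1.1 in Prp8H>R and 1.11 in Prp8S>F. The list of photoreceptor differentiation genes had 31 of 46 matched genes listed, all lower. Their median log2 fold change was -0.20, and 18 passed the adjusted p. Like all gene lists here, this list was chosen with earlier results of these data known, so its shared direction is no independent support. After *pros* and *cpo* its largest falls were in *nerfin-1*, in *phyl* (-1.32), an adaptor that promotes degradation of the repressor Tramtrack, and in *chp* (-1.31), the photoreceptor surface protein Chaoptin. In Prp8H>R 27 genes of this list were lower and 0 higher, and in Prp8S>F 39 were lower and 0 higher. For *chp* the values were -1.16 in Prp8H>R and -1.49 in Prp8S>F.

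The list of E(spl), Bearded and proneural genes had 1 listed gene of 22 in Prp8F>L, *sens* (-1.12), beside 0 higher and 8 lower in Prp8H>R and 0 and 16 in Prp8S>F. Of all annotated genes 8.77% were listed for Prp8F>L, the share to set beside the counts of this paragraph. A count of 1 of 22 is not read as a result about these genes. Phototransduction genes, most of which act in adult photoreceptors, had 4 of 28 listed, all lower, and retinal determination genes had 1 higher and 4 lower of 15.

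Terms of surface and adhesion proteins had mostly lower genes. Cell adhesion had 2 higher and 30 lower genes, homophilic adhesion 0 and 12, and the plasma membrane 16 and 103. *hig*, a secreted protein of the synaptic cleft, had -1.29, and the cadherin *Cad88C* had -1.14. The higher gene with the largest value at the plasma membrane was *Dhit*, and *Wnt4* (-1.33), a secreted signal, was among the largest falls there. Tyrosine kinases had 0 higher and 8 lower genes: *sev* (-1.22), the receptor that specifies R7, was followed by *Abl* and *otk* (each -1.15), *InR* (-1.11), the insulin receptor, and *Ddr* (-1.1). All 8 were also listed in another table, and *sev* had -1.22 in Prp8H>R and -1.56 in Prp8S>F. Wnt signalling had 0 higher and 9 lower genes in Prp8F>L, beside 0 and 1 in Prp8H>R and 0 and 10 in Prp8S>F. Of the 9, 7 were listed for Prp8F>L alone, compared with 41.1% of all lower genes. The 9 genes were led by *Wnt4*, the chromatin remodeller gene *osa* (-1.15), the acetyltransferase gene *nej* (-1.13), *spen* (-1.11) and the glypican gene *dally* (-1.1). Wing morphogenesis, a term shared by many disc patterning genes, had 7 higher and 50 lower genes, and tracheal system development had 3 and 27.

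Transcription factors were lower in 88 of 103 listed genes, and 50 of the 103 were in neither other table (11 higher, 39 lower), close to the 49.9% of the whole table. The largest falls were in *pros*, *SoxN*, *run*, *Eip93F* (-1.3), a factor of the late ecdysone response, and *H15* (-1.29), a T-box factor. *Eip93F* was unlisted for the other mutants. The ecdysone list as a whole had 1 higher and 4 lower of 23 genes. Antennal and peripodial marker genes, themselves mostly transcription factors, had 0 higher and 9 lower of 18. Of the 9, 7 were listed for Prp8F>L alone, compared with 41.1% of all lower genes. Among the 9 genes *al* had -1.17 and *ct* -1.16, and *ap* had -1.15 in Prp8F>L, 1.17 in Prp8H>R and 1.41 in Prp8S>F.

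Listed protease genes were mostly lower, with 10 higher and 35 lower under proteolysis. The largest values were those of *stl* (-1.36), an ADAMTS family metalloprotease, *CG7432* (1.31) and *Np* (-1.31). Oxidation-reduction enzymes were split, with 18 higher and 21 lower genes. Apart from *Cyp4p2* and *Cyp4p1*, the largest values there were *Cyp12a5* (-1.29), *CG10211* (-1.24) and *Gpdh* (1.21), the glycerol-3-phosphate dehydrogenase. In the list of glutathione S-transferases and glutathione enzymes, which conjugate or make glutathione, 3 genes were higher and 2 lower of 38. *GstE6* had 1.23 in Prp8F>L, 1.87 in Prp8H>R and 3.77 in Prp8S>F, and *GstE13* had 1.22 in Prp8F>L and 1.22 in Prp8S>F.

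Listed genes of the ribosome were higher in Prp8F>L discs, by small amounts. All 15 listed structural constituents of the ribosome were higher (median log2 fold change 0.15), against 41.9% higher in the whole table. Of the 15, 11 were in neither other table, compared with 62.2% of all higher genes. Prp8H>R had 7 and Prp8S>F 22 ribosome constituents higher and none lower. The largest value was that of the ribosomal protein gene *RpL23A* (1.25), followed by the mitochondrial ribosomal genes *mRpL21* (1.17), *mRpS17* (1.16) and *mRpL12* (1.15) and by *RpLP0-like* (1.13). 1 of the 15 passed the adjusted p. All 8 listed genes of ribosome biogenesis and all 9 of the nucleolus were higher, among them *Nop60B* (1.11), the pseudouridine synthase of snoRNPs, and *CG7637* (1.15).

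Terms of splicing, the process in which Prp8 acts, differed in direction. All 11 listed genes of the catalytic step 2 spliceosome were higher, with a median log2 fold change of 0.15. Of the 11, 7 were in neither other table, compared with 62.2% of all higher genes. None of the 11 passed the adjusted p. The Sm proteins that form the ring of every spliceosomal snRNP other than U6 were represented by *SmD3* (1.14), *SmE* (1.1) and *SmD1* (1.09). *Dhx15* (1.09) encodes a helicase of spliceosome disassembly, *Cypl* (1.12) a cyclophilin of the spliceosome, and *aub* (1.17), which carries the term, the Piwi protein Aubergine of the piRNA pathway. *aub* had 1.42 in Prp8S>F. The precatalytic spliceosome had 11 higher and 4 lower genes, and regulation of alternative mRNA splicing had 2 higher and 7 lower. The wider term mRNA splicing had 14 higher and 5 lower genes, with the sex-determination splicing regulator *tra* (1.19) at the top and *CG7564* (-1.11) and *CG30122* (-1.1) among the lower. In the list of tri-snRNP and Prp19 complex proteins, the direct neighbours of Prp8, 3 of 34 genes were listed, the 3 Sm genes named above, a share close to the 8.77% of all annotated genes.

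Listed chaperone genes were higher in Prp8F>L, and for several of them the listed values of Prp8S>F had the opposite sign. Of 23 matched heat-shock and co-chaperone genes 18 were listed for Prp8F>L, all higher, with a median log2 fold change of 0.21, and 9 passed the adjusted p. In Prp8H>R 1 gene of the list was higher and 2 were lower, and in Prp8S>F 2 were higher and 7 lower. *Hsp67Bc* had 1.48 in Prp8F>L, -1.13 in Prp8H>R and -1.71 in Prp8S>F. *DnaJ-1*, an Hsp40 co-chaperone, had 1.42 in Prp8F>L and -1.25 in Prp8S>F. *Hsp27* had 1.25 in Prp8F>L and -1.21 in Prp8S>F, whereas *Hsp23* (1.28) was listed for Prp8F>L only. *Hsp67Bc*, *Hsp23*, *Hsp27* and *Hsp67Ba* (1.19) lie within 25 kb of *Hsp26* on chromosome 3L.

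Other chaperones of the list had values up to 1.25. *Hsp83*, the Hsp90 of the fly, had 1.21, and *stv*, a BAG co-chaperone, 1.25. *Hsp68* had 1.18 and 5 of the Hsp70 copies between 1.09 and 1.14, while *Hsp70Bbb* had 1.01 beside a p listed as 0. The Hsp70 copies are nearly identical, and reads may have been split among them, so they are not independent counts within the list. *Hsp70Bbb* had -1.01 in Prp8H>R and -1.01 in Prp8S>F and is counted among the lower genes of both. Among the GO terms, unfolded protein binding had 12 higher and 0 lower genes, protein folding 14 and 1, and response to heat 17 and 5. For response to heat, Prp8H>R had 4 higher and 9 lower genes and Prp8S>F 5 and 15. *CG11267*, the mitochondrial Hsp10 homologue, was higher at 1.16 in Prp8F>L and 1.16 in Prp8S>F.

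**Figure D4:**
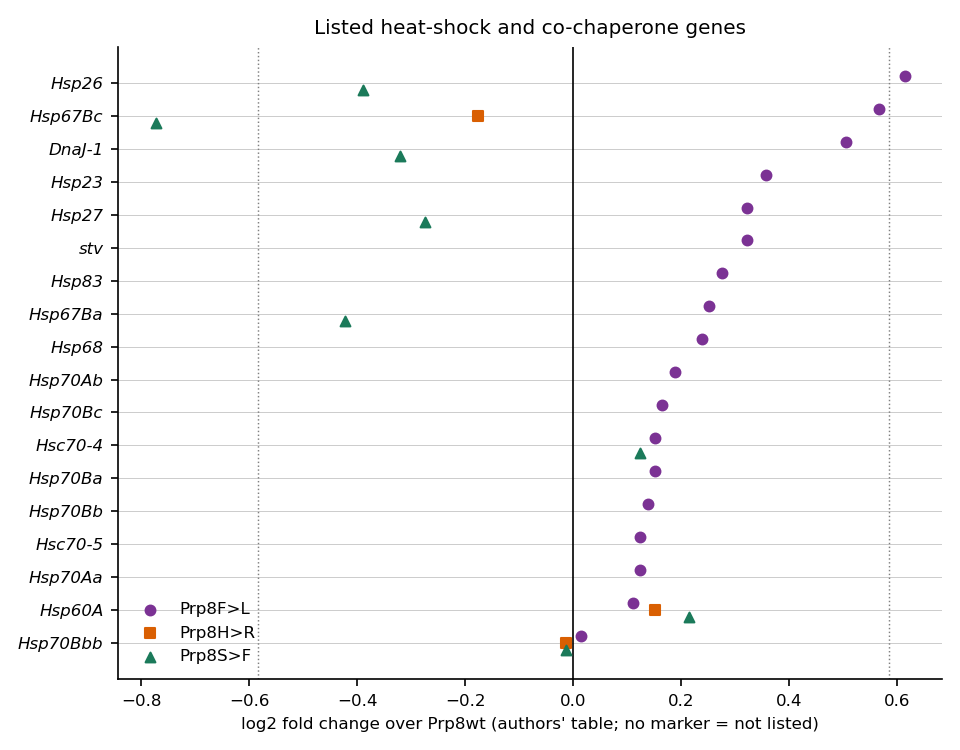
Log2 fold change over Prp8wt (horizontal axis) of the 18 heat-shock and co-chaperone genes listed for Prp8F>L (circles), with Prp8H>R (squares) and Prp8S>F (triangles) where listed; dotted lines mark a fold of 1.5. All circles lie right of 0, with *Hsp26* highest at 1.53-fold, while the triangles of *Hsp26*, *Hsp67Bc*, *DnaJ-1*, *Hsp27* and *Hsp67Ba* lie left of 0.

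Genes of mitochondria were higher in 23 of 32 listed cases and those of the mitochondrial matrix in 8 of 8. The complex I subunit gene *ND-ASHI* had 1.2, the dicarboxylate carrier *Dic1* 1.19 and the pyruvate dehydrogenase kinase *Pdk* 1.17. *Gs1*, the mitochondrial glutamine synthetase, went the other way in all 3 mutants, at -1.31 in Prp8F>L, -1.22 in Prp8H>R and -1.36 in Prp8S>F. Among the mitochondrial genes that passed the adjusted p, 3 were higher and 4 lower. DNA repair had 8 higher and 0 lower genes, led by the photolyase *phr*, with 1.28 in Prp8F>L, 1.17 in Prp8H>R and 1.49 in Prp8S>F. DNA replication genes had 6 higher and 0 lower of 34 in Prp8F>L, beside 17 and 0 in Prp8H>R and 20 and 1 in Prp8S>F. *Psf1*, a GINS subunit, had 1.24 and was in neither other table, and *PCNA*, the sliding clamp, had 1.1 in Prp8F>L, 1.13 in Prp8H>R and 1.24 in Prp8S>F. Of 42 mitosis genes 1 was listed, *CycB* (-1.13), beside 6 higher and 0 lower in Prp8H>R and 8 and 1 in Prp8S>F. For both lists, replication and mitosis, the share to set beside the Prp8F>L counts is the 8.77% of all annotated genes.

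Larval cuticle constituents had 11 higher and 0 lower genes, led by *Cpr49Ah* (1.31), *Lcp65Ac* (1.15) and *Cpr11A* (1.14). 6 of the 11 are genes with a p listed as 0 and a fold change of a size under 1.1. Neurogenesis, a broad term of the table, had 46 higher and 31 lower genes, with *CG5290* (1.38) and *Cpr49Ah* highest and *H15*, *Nlg3* (-1.26), a neuroligin, and *SLO2* (-1.25), a potassium channel, lowest. Phagocytosis was split (14 and 16), as were vesicle-mediated transport (10 and 10) and transmembrane transport (18 and 14).

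Of 31 genes of JNK signalling and tissue damage 9 were listed for Prp8F>L, against 8.77% of all annotated genes, with fold changes of a size up to 1.16. They were 5 higher and 4 lower in Prp8F>L, beside 9 and 0 in Prp8H>R and 12 and 5 in Prp8S>F. *Ilp8*, the relaxin-like signal that growing discs release on damage, had 1.12 in Prp8F>L, 1.76 in Prp8H>R and 2.85 in Prp8S>F. *Jra*, the fly Jun, and *grnd*, a TNF receptor, each had 1.16, and *Gadd45* had 1.15. *wg* had -1.11 and *Traf4* -1.11. None of 18 matched apoptosis genes was listed for Prp8F>L, which leaves their change unknown, beside 1 higher and 1 lower in Prp8H>R and 1 and 4 in Prp8S>F. Innate immunity had 1 higher and 1 lower gene of 30, a listed share near the 8.77% of all annotated genes.

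Markers of other cell types that a dissected disc can hold were also among the lower genes. Hemocyte markers had 0 higher and 8 lower of 24, led by *lz*, *Col4a1* (-1.22), a type IV collagen, and *peb*. The others were *LanA*, *ush*, *LanB2*, *LanB1* and *Ppn*, and of the 8 only *lz* passed the adjusted p. The blood cell markers *Hml*, *Pxn*, *NimC1*, *eater*, *He* and *srp* of this list were unlisted. *lz* and *peb* are also genes of the eye disc and stand among the eye genes above. Glial markers had 1 higher (*Tret1-1*, 1.24) and 5 lower of 20, led by *ltl* (-1.31) and *repo* (-1.21). Brain and ring gland markers had 1 higher and 11 lower of 39, including *pros*, *brp*, *Syt1*, *amon* (-1.19) and *nSyb* (-1.19), of which *pros*, *brp*, *Syt1* and *nSyb* also belong to the neural lists above. The other lower ones were *elav* (-1.15), also in the photoreceptor list, *sro* (-1.16), *mira* (-1.15), *sad* (-1.14), *Akh* (-1.11) and *phm* (-1.11). *sro*, *mira*, *sad*, *Akh* and *phm* were listed for Prp8F>L alone, and none of them passed the adjusted p. The higher gene was *Syb* (1.08). Fat body markers had 0 higher and 3 lower of 19: *daw*, *Obp44a* (-1.25) and *Lsp1alpha*, at -1.04 beside a p listed as 0. Muscle markers had 3 higher and 2 lower of 24, with *Unc-89* highest (1.28) and *sls* lowest (-1.19). No levels are in the tables, so it is not known which markers were near 0, and the part of other cells in the lower neural genes was not tested.

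The lower genes of the Prp8F>L table were longer than the higher genes, whose median length was near that of the unlisted genes. This comparison was made after the values had been seen. The 873 lower protein-coding genes had a median length from start to end, introns included, of 13180 bp, and the 637 higher ones a median of 2158 bp, compared with 2042 bp for 12476 unlisted genes. The median number of introns was 6 in lower, 2 in higher and 2 in unlisted genes. Of listed genes under 2 kb 29.2% were lower, of those from 2 to under 5 kb 34.9%, from 5 to under 20 kb 73.6%, from 20 to under 50 kb 95.1%, and of those of 50 kb and over 96.7%. In the same bins the share for Prp8H>R was 42.1%, 42.1%, 67.0%, 76.5% and 80.4%, and for Prp8S>F it was 29.3%, 39.3%, 66.3%, 74.9% and 80.5%. At 20 kb and over, 333 of 348 listed genes were lower in Prp8F>L (95.7%), 191 of 245 in Prp8H>R (78.0%) and 291 of 379 in Prp8S>F (76.8%), beside 58.1%, 56.5% and 51.4% lower in the whole tables (41.9%, 43.5% and 48.6% higher). The 348 genes were 34.1% of the 1021 annotated genes of that length. Under 20 kb, 540 of 1162 listed genes were lower in Prp8F>L (46.5%).

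**Figure D5:**
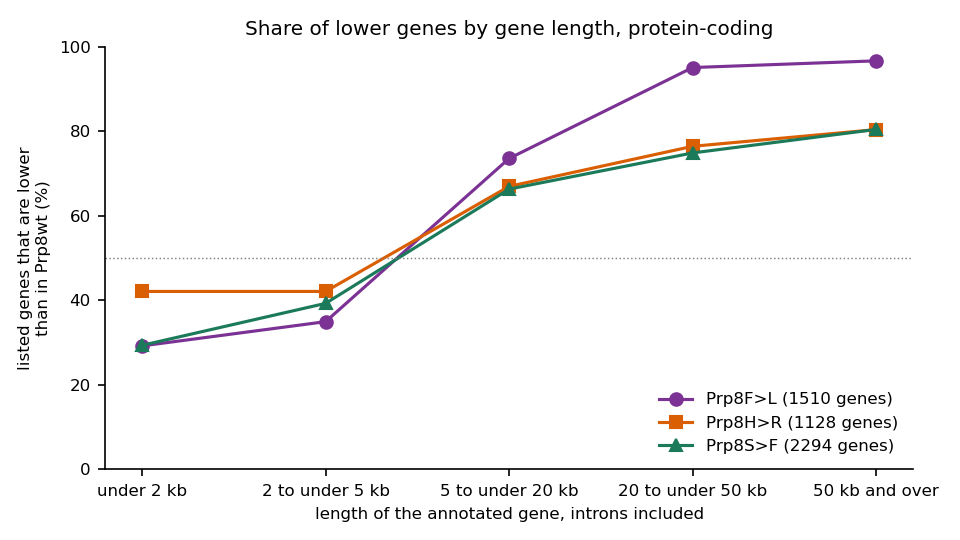
Share of listed protein-coding genes that were lower than in Prp8wt (vertical axis, percent) by length of the annotated gene (horizontal axis, 5 bins), for Prp8F>L (circles), Prp8H>R (squares) and Prp8S>F (triangles). All 3 lines climb with gene length, and that of Prp8F>L ends highest, at 96.7% for genes of 50 kb and over.

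Intron number went with direction as well, with 48.1% of intronless genes lower, 33.7% at 1 to 2 introns, 52.9% at 3 to 5, 77.2% at 6 to 10 and 91.3% at 11 and over. Within a length range the share changed little with intron number. Under 5 kb it was 31.4% at 0 to 2 introns, 31.0% at 3 to 5 and 37.5% at 6 and over, and from 5 to under 20 kb it was 74.6%, 67.9% and 77.2%. The neural and eye terms hold long genes: the listed axon guidance genes had a median length of 29375 bp. Among their members under 20 kb, 22 were lower and 1 higher. Among the 28 lower genes of compound eye development 17 were of 20 kb and over, and under 20 kb the term had 11 lower and 1 higher. The photoreceptor list had 16 lower and 0 higher under 20 kb. Other neural terms were more mixed or small there, beside 46.5% lower among all listed genes under 20 kb. Dendrite morphogenesis had 15 lower and 11 higher, and the synaptic vesicle 7 and 4. Chemical synaptic transmission had 2 lower and 1 higher, and the neuromuscular junction 4 and 0. The terms with higher genes hold shorter ones, with medians of 1073 bp for ribosome constituents, 1867 bp for the catalytic step 2 spliceosome and 2380 bp for unfolded protein binding. The part of gene length in the direction of each term was not tested. The mean insert size was 186.7 to 195.8 bases in Prp8F>L libraries and 193.8 to 198.8 bases in Prp8wt libraries (exact permutation test, two-sided, p = 0.5).

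The 15 genes of 20 kb and over that were higher in Prp8F>L are named here after their values were seen. *CG42541* was the highest (1.34, with 1.25 in Prp8S>F), followed by the sodium channel gene *NaCP60E* (1.18), the sodium-calcium exchanger gene *Calx* (1.17), *CG5888* (1.16) and *ey*. The Hox gene *Antp*, which spans 102976 bp, had 1.02 beside a p listed as 0, and the allatostatin receptor gene *AstA-R1* had 1.04, also beside a p listed as 0. *nAChRalpha5*, a nicotinic receptor subunit, had 1.13 in Prp8F>L, 1.16 in Prp8H>R and 1.28 in Prp8S>F. *CG42750*, the longest of the 15 at 115960 bp, had 1.11 in Prp8F>L, 1.54 in Prp8H>R and 2.06 in Prp8S>F. The others were *CG43078* (1.15), *exp* (1.14), *Kank* (1.11), *Ptpmeg* (1.1), *p130CAS* (1.09) and *Ance-3* (1.06).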

How the data were processed

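RNA-seq libraries (TruSeq kit, paired-end reads) were made by the authors from about 100 discs per replicate. Per the submitters' processing notes and the study's methods, reads passed a FastQC check, TopHat2 2.0.10 aligned them to BDGP6 (dm6), and DESeq2 gave the gene comparisons. The deposited fold change of each mutant against Prp8wt is a signed score, falls being negative. Deposited p-values carry 6 decimals and stop at 0.05; adjustment of p and shrinkage of folds are not given in the sources used here. The authors' quality reports give reads per library. These comparison columns are the only values per gene used here; the design had provided for counts, and its provision for comparison tables was followed. The authors' GO enrichment table and gene sets were not used.

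From the tables, log2 fold changes, counts by direction, GO term and gene list, and adjusted p-values were computed with Python 3.11.15, numpy 2.4.6 and pandas 2.3.3, and figures with matplotlib 3.10.9. The Benjamini-Hochberg adjustment ran over 18358 annotated genes (Ensembl release 115), with unlisted genes at a p of 1 and a p of 0 set to 1e-06, and was checked on simulated tables. For *br* the entry with the smaller p was kept. Gene length, introns and position came from the annotation, for 1610 matched genes. Of 748 entries in 23 gene lists, 698 matched. No library was left out, and the labels do not say whether replicates were separate cultures.

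Genes were named by rule: all genes past both thresholds, the 10 largest rises and falls among genes listed for Prp8F>L alone, up to 5 members with the largest fold change per term or list, *Prp8* and listed spliceosome genes. Genes named beyond that rule were chosen after their values were seen. The members and lists were chosen with earlier results of these data known. Alternatives were a p under 0.01, the adjusted p, fold thresholds of 1.2 and 2, and leaving out genes with a p of 0 and a fold under 1.1.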

Additional observations from a re-analysis of the deposited data

How the results depend on the processing

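At a fold threshold of 2, 2 genes were higher and 4 lower in Prp8F>L, 1 of them past it the same way in no other mutant. At 1.2 these counts were 96, 214 and 143. At a p under 0.01, 286 genes were listed higher, 542 lower and 442 in no other table by the same threshold. With the adjusted p these counts were 149, 297 and 240. Of terms and lists with unequal counts, those that kept members kept their direction in 51 of 54 cases at a p under 0.01, in 44 of 49 with the adjusted p, and in 54 of 55 without the genes that have a p of 0 and a fold under 1.1. Those that turned were mitochondrion (3 higher, 4 lower with the adjusted p), transmembrane transport (5 and 8 at a p under 0.01, 4 and 5 with the adjusted p), neurogenesis (12 and 21, then 7 and 9) and muscle markers (1 and 2 at a p under 0.01). Retinal determination and muscle markers became equal with the adjusted p (1 and 1 each), and JNK and tissue damage without the genes that have a p of 0 and a fold under 1.1 (4 and 4). Vesicle-mediated transport, equal at first, had 2 higher and 8 lower at a p under 0.01 and 0 and 4 with the adjusted p. The cause was not tested. Larval cuticle constituents were 5 without the genes that have a p of 0 and a fold under 1.1. With a minimum of 5 listed genes per term there were 487 terms, 122 at least 90% lower and 23 at least 90% higher, and with a minimum of 15 there were 113, 14 and 3. No paired analysis was possible because the tables hold no value per library, and for the same reason leaving out each replicate was not run.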

Other observations

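By chromosome arm, the share of listed genes that were lower in Prp8F>L was 54.0% on 2L (311 genes), 53.8% on 2R (370), 54.7% on 3L (327), 63.0% on 3R (346) and 68.1% on X (238). Chromosome 4 had 6 higher and 10 lower genes. None of 38 annotated genes of the mitochondrial genome was listed.

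Among non-coding genes, 23 of 269 annotated snoRNA genes were listed, 7 higher and 16 lower, and 2 of 32 snRNA genes, both lower. Of all annotated genes 8.77% were listed, so neither class was listed more often than genes in general. Of 3304 genes annotated as other non-coding RNA, 26 were higher and 37 lower, with *CR40469* the only one past both thresholds. The 237 listed genes without a GO term had 100 higher and 137 lower, and only 2 of them, *CG15236* and *CR40469*, were past both thresholds.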
